A study of Mus musculus with 4 samples.

Results

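The T cell costimulation and checkpoint genes described here are 10 of the 33696 genes counted in nuclei of injured mouse brain, chosen by name as the ligands Cd80, Cd86, Cd274 and Pdcd1lg2, the receptor Cd40, and the receptors Cd28, Ctla4, Icos, Pdcd1 and Havcr2. No measured value entered the choice. The study compared wild-type (WT) mice, used as controls, with Col1a2(creER); Cxcl12(flox) mice, called Cxcl12-cKO, in which tamoxifen activates a Cre recombinase under the Col1a2 promoter, active in fibroblasts, to remove the floxed chemokine gene Cxcl12. Adult mice of both groups received a photothrombotic (PT) injury, a focal ischaemic lesion made by light, and brain tissue was taken 21 days post-injury (dpi). For each genotype, lesion and surrounding parenchyma of 1 male and 1 female mouse were pooled by region, tagged, mixed and sequenced as 1 library of single nuclei with a 3′ chemistry. The labels call the controls WT, and the study's methods list for its knockout strains several kinds of control, given tamoxifen where relevant, among them littermates without Cre or with a single floxed allele; which kind was sequenced here is not stated.

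A T cell needs a second signal beside its antigen receptor, and these genes carry much of it. Cd80 and Cd86 encode the B7 ligands on antigen-presenting cells, which bind the activating receptor CD28 and the inhibitory receptor CTLA-4. Cd274 (PD-L1) and Pdcd1lg2 (PD-L2) are the ligands of the inhibitory receptor PD-1, encoded by Pdcd1. CD40 on antigen-presenting cells receives help from activated T cells and promotes the display of B7 ligands, ICOS is a costimulatory relative of CD28, and Havcr2 encodes TIM-3, a checkpoint receptor of T cells that microglia and dendritic cells also carry. Isolated nuclei hold no positions, so the values below give the classes of nuclei in which these genes were counted. The comparison of the libraries asks how the counts differ when fibroblasts are meant to lack CXCL12.

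Of 23489 barcodes, 21743 nuclei were kept. Median depth was 2962 and 2975 UMIs (unique molecular identifiers, counted transcripts) in the lesional matrices and 15915 and 16648 in the parenchymal matrices. Nuclei with UMIs of both Xist and Y-linked genes, and so with RNA of both mice, made up 9.75% to 14.3% of each matrix, and 47 barcodes occurred in both libraries. The targeted gene went against the labels: Cxcl12 had 1521 UMIs in lesional fibroblast-like nuclei of the control-labelled library and 3162 in the Cxcl12-cKO-labelled library, 106 and 215 CPM, the UMIs of a gene scaled to an equal total for the class. Since the sources do not say which exons were floxed, a 3′ count does not check the deletion, and the libraries are named by their labels throughout. Swapped labels cannot be told apart from counts of a transcript that outlasts the deletion, and would turn the sign of every log2 ratio below. With 1 library per genotype no test between genotypes was possible. Differences are given as log2 ratios of CPM, Cxcl12-cKO-labelled library over control-labelled library, with 95% intervals that cover counting error only, and the female and the male mouse of each library, told apart by Xist and Y-linked UMIs, are given as a second reading. Where a pair of values is given, the control-labelled library comes first.

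The members fell into 3 groups by the class of nuclei that held most of their UMIs. Cd80 was a fibroblast transcript here: 78.9% of its 4150 UMIs were in fibroblast-like nuclei. Cd86 (2470 UMIs) and Havcr2 (2219 UMIs) were myeloid, with 90.5% and 88.2% in myeloid-like nuclei, and Cd40 (197 UMIs), Cd28 (212 UMIs), Pdcd1lg2 (86 UMIs) and Cd274 (1403 UMIs) also had most of their UMIs there, at 68.0%, 75.0%, 58.1% and 57.9%. Icos (138 UMIs) and Pdcd1 (46 UMIs) were led by T-cell-like nuclei, at 60.1% and 43.5%, although only 216 nuclei had that class. Ctla4 (139 UMIs) fell in none of these groups, with 48.9% of its UMIs in 3943 excitatory neurons and 11.5% in T-cell-like nuclei. A share depends on how many UMIs of any gene a class holds, which was not set beside it here. The level of Ctla4 ran the other way, at 0.935 CPM in excitatory neurons and 41.4 CPM in T-cell-like nuclei.

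By region, 8 of the 10 members had 89.1% or more of their UMIs in lesional nuclei. The exceptions were Ctla4, with 35.3% in lesion, and Pdcd1lg2, with 73.3%. Before filtering, the lesional matrices held 34769874 and 31995274 UMIs of all genes, fewer than the parenchymal 62701074 and 62749811. The shares of the members are of kept nuclei, so these totals are not a like comparison. The filter removed 3.74% and 3.53% of the lesional and 24.1% and 23.4% of the parenchymal UMIs. The 35.3% of Ctla4 is not read as a trait of the gene. In Pdcd1lg2 the parenchymal UMIs were 23 in all, of which 15 lay in excitatory neurons and 5 in a single fibroblast-like nucleus.

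**Figure D1:**
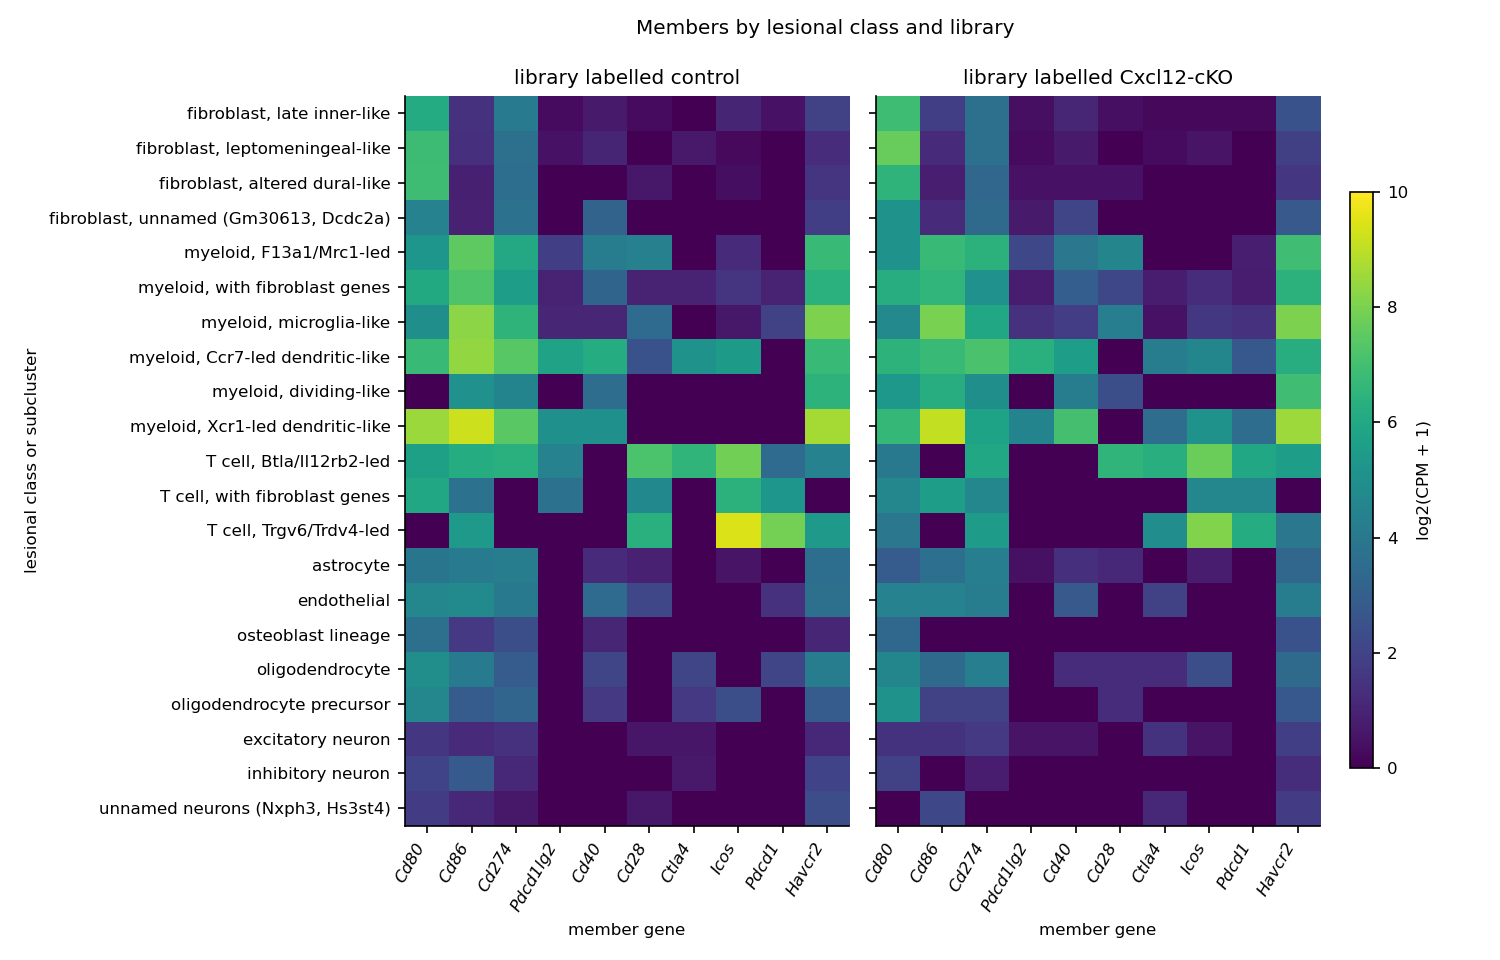
Level of each member as log2(CPM + 1) in lesional classes and subclusters (vertical axis) for the 10 members (horizontal axis), in the control-labelled library (left) and the Cxcl12-cKO-labelled library (right). Colours are read down a gene and not between genes: Cd80 is bright in fibroblast-like and dendritic-like rows, Cd86 and Havcr2 in myeloid-like rows, and Icos in T-cell-like rows.

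Cd80 (ENSMUSG00000075122), which encodes the B7-1 ligand, was present in lesional fibroblast-like nuclei of both libraries and was higher in the Cxcl12-cKO-labelled library. The control-labelled library had 1345 UMIs, 93.6 CPM (88.7 to 98.7), and the Cxcl12-cKO-labelled library 1920 UMIs, 131 CPM (125 to 136), a log2 ratio of 0.48 (0.38 to 0.58). The female mice had 94.9 and 115 CPM and the male mice 98.8 and 146 CPM, in the same order of libraries. Both mice of the Cxcl12-cKO-labelled library were above both mice of the other library, with a log2 ratio of 0.27 for the female pair and 0.57 for the male pair. The class was checked by its 7 markers, all detected in both libraries, whose summed level was 4314 and 3827 CPM, so Cd80 was higher where the fibroblast markers were lower.

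Cd80 was concentrated in few nuclei. A UMI of Cd80 was found in 18.0% of 4195 and 20.3% of 4106 lesional fibroblast-like nuclei, at median depths of 3053 and 3091 UMIs. As a background, 2.13% and 2.40% of parenchymal excitatory neurons had one, at 17881 and 18993 UMIs, and 4.32% and 2.60% of lesional astrocyte-like nuclei, at 3656 and 4083. After thinning each nucleus to 1000 UMIs, which left out 112 and 104 shallower fibroblast-like nuclei, the shares were 6.98% and 8.90%, against 0% and 0.181% in those neurons. The share of fibroblast-like nuclei with Cd80 was therefore above that of parenchymal excitatory neurons in each library at equal depth. For astrocyte-like nuclei only the shares before thinning are given here.

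Over the class as a whole and before thinning, the libraries differed more in UMIs per positive nucleus than in the share of positive nuclei. Positive nuclei held 1.78 and 2.30 Cd80 UMIs on average, and the highest nucleus 14 and 20. Nuclei with 5 or more UMIs numbered 46 and 90, and held 21.3% and 37.0% of all Cd80 UMIs in the class. Nuclei with 10 or more numbered 3 and 20.

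Cd80 differed among the fibroblast states, which were clusters built without any member gene. The late inner-like state (1372 and 1603 nuclei) had 70.9 CPM in the control-labelled library and 118 in the Cxcl12-cKO-labelled library, a log2 ratio of 0.73 (0.54 to 0.92). The leptomeningeal-like state (1587 and 1396 nuclei) had 116 and 204 CPM, a log2 ratio of 0.81 (0.66 to 0.97). The altered dural-like state (869 and 630 nuclei) went the other way, at 117 and 89.0 CPM (log2 ratio -0.39, -0.63 to -0.15). The lowest level was in an unnamed state led by Gm30613 and Dcdc2a (367 and 477 nuclei), at 20.4 and 34.4 CPM (log2 ratio 0.74, 0.02 to 1.53). In the control-labelled library the leptomeningeal-like and altered dural-like states did not differ beyond their counting intervals, and in the Cxcl12-cKO-labelled library they were the highest and the second lowest state. The share of positive nuclei also moved by state. In the late inner-like state 178 of 1372 and 320 of 1603 nuclei had Cd80, with 1.90 and 2.28 UMIs per positive nucleus. In the altered dural-like state 252 of 869 and 127 of 630 had it, with 1.67 and 1.76 UMIs.

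The direction within each state was shared by both mice. In the altered dural-like state the female mice had 121 and 78.0 CPM and the male mice 124 and 82.7. In the leptomeningeal-like state the female mice had 103 and 156 CPM and the male mice 130 and 250, so the male mouse of the Cxcl12-cKO-labelled library stood highest. In nuclei with 5 or more Cd80 UMIs the same order held, with 23 and 56 nuclei in the leptomeningeal-like state and 11 and 5 in the altered dural-like state. The name of the altered dural-like state rests on its 4 markers (Alpl, Foxc2, Mgp and Fxyd5), and a list of dural border markers scored higher in the same cluster. No state passed the markers of the lymphocyte-interactive fibroblasts described in this lesion model. That list held only Cxcl12, Ccl19 and Cxcl16, all of which had to pass, and the targeted Cxcl12 was left out of the clustering. The rule could therefore not show that the state was absent.

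**Figure D2:**
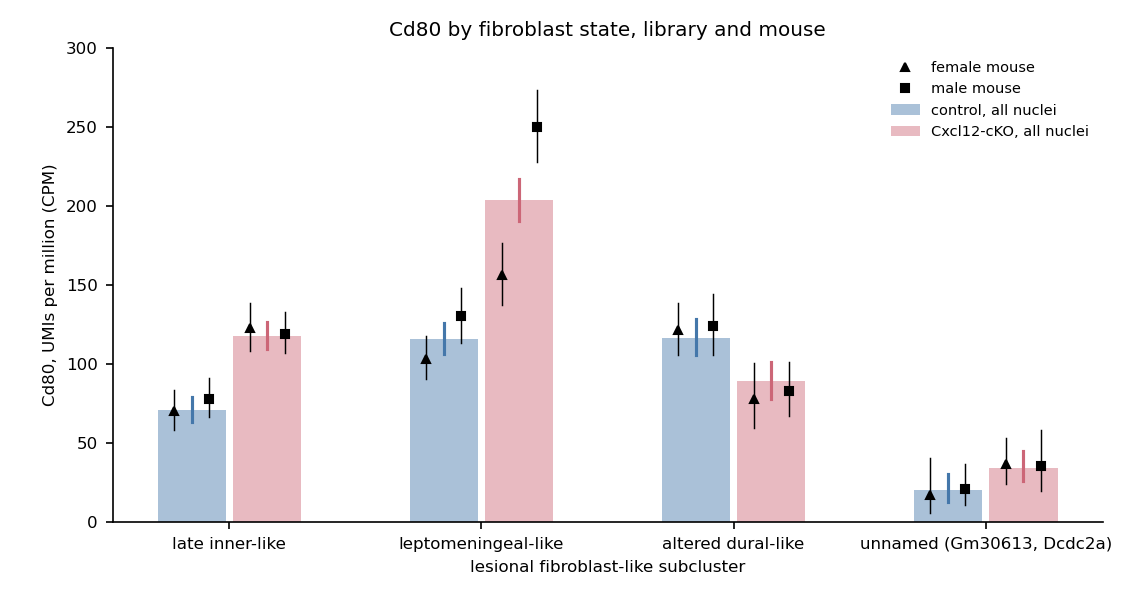
Cd80 in CPM (vertical axis) in the 4 lesional fibroblast-like subclusters (horizontal axis), with bars for all nuclei of a library, triangles and squares for the female and male mouse, and lines for 95% counting intervals. The bars of the Cxcl12-cKO-labelled library stand above those of the control-labelled library in 3 subclusters and below in the altered dural-like subcluster, 89.0 against 117 CPM.

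Cd80 was also counted in myeloid-like nuclei. Lesional myeloid-like nuclei had 229 and 285 UMIs, 48.1 and 41.1 CPM, and the log2 ratio of -0.23 (-0.48 to 0.03) could not be told from 0 by counting error. The mice went opposite ways: the female mice had 54.0 and 37.1 CPM and the male mice 26.3 and 41.1. Fibroblast markers were also counted in these nuclei, at 1080 and 668 CPM. Cd80 had 4.45 and 6.16 UMIs per 100 fibroblast-marker UMIs there and 2.17 and 3.41 in fibroblast-like nuclei; the part of fibroblast RNA was not tested. In a dendritic-like subcluster led by Xcr1, Cd80 was 365 CPM (23 UMIs) in the control-labelled library and 99.0 CPM (9 UMIs) in the other. In astrocyte-like nuclei it had 32 and 17 UMIs, 14.0 and 6.48 CPM, where its UMIs per 100 fibroblast-marker UMIs, 1.57 and 1.78, were below those of fibroblast-like nuclei; the part of fibroblast RNA in this difference was not tested. Osteoblast-lineage nuclei, which also carry collagen genes, had only 11 and 2 Cd80 UMIs, 0.106 and 0.0992 per 100 fibroblast-marker UMIs.

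Cd86 (ENSMUSG00000022901), which encodes the B7-2 ligand, was lower in lesional myeloid-like nuclei of the Cxcl12-cKO-labelled library. The control-labelled library had 1089 UMIs, 229 CPM (215 to 242), and the other 1106 UMIs, 160 CPM (150 to 169). The log2 ratio was -0.52 (-0.64 to -0.40). The female mice had 264 and 196 CPM and the male mice 174 and 122 CPM, so each sex was lower, but within the control-labelled library the mice differed by as much as the libraries did. The male control mouse, at 174 CPM, was below the female mouse of the Cxcl12-cKO-labelled library, at 196. The share of myeloid-like nuclei with a Cd86 UMI was 33.8% and 27.9% at median depths of 2174.5 and 2371 UMIs, and 18.4% and 14.9% after thinning, which left out 99 and 118 nuclei; in lesional astrocyte-like nuclei it was 1.13% and 1.12% after thinning and 3.95% and 4.27% before.

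Cd86 was lower in the Cxcl12-cKO-labelled library in 5 of 6 myeloid-like subclusters, by unequal amounts. The microglia-like subcluster had 302 and 254 CPM, a log2 ratio of -0.25 (-0.42 to -0.08). A macrophage-type subcluster led by F13a1 and Mrc1 had 182 and 105 CPM, a log2 ratio of -0.79 (-1.04 to -0.55). A subcluster that also carried fibroblast genes, in which 31.0% of nuclei had UMIs of both sexes, had 149 and 94.3 CPM, although the female mice, at 138 and 130 CPM, and the male mice, at 83.7 and 88.7, did not each show it. The dendritic-like subcluster led by Ccr7, a receptor of migrating dendritic cells, had the lowest log2 ratio, with 69 UMIs in 60 nuclei (330 CPM) and 19 UMIs in 53 nuclei (109 CPM), a log2 ratio of -1.57 (-2.41 to -0.85). The name of this subcluster rests on 3 of 7 dendritic cell markers, and a list of monocyte markers scored higher in the same cluster. Of its nuclei, 57.5% were of the female and 9.73% of the male mice, so the males give little second reading there. The highest level was in the Xcr1-led dendritic-like subcluster, with 602 and 539 CPM, and there the libraries did not differ beyond counting error (-0.16, -0.80 to 0.49). The dividing-like subcluster was the exception in direction, with 3 and 17 UMIs, 32.7 and 73.8 CPM.

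Other marker lists moved beside Cd86 in the myeloid-like class. The 8 myeloid markers, none at 0, summed to 3382 and 2762 CPM. The 6 neutrophil markers, 1 of them at 0 in each library, summed to 660 and 296 CPM, and the 9 T cell markers, none at 0, to 37.4 and 19.2 CPM. Their part in the Cd86 difference was not tested. Cd86 per 100 myeloid-marker UMIs was 6.76 and 5.78. Fibroblast-like nuclei had 20 and 26 Cd86 UMIs, 1.39 and 1.77 CPM, so a stromal cell with Cd80 had next to no Cd86: of 8301 lesional fibroblast-like nuclei, 1588 had Cd80, 44 had Cd86 and 6 had both. In 4076 myeloid-like nuclei 363 had Cd80, 1241 had Cd86 and 144 had both.

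Havcr2 (ENSMUSG00000020399), the TIM-3 gene, was myeloid in place and did not differ between the libraries beyond counting error. Myeloid-like nuclei had 771 UMIs, 162 CPM (151 to 174), in the control-labelled library and 1143 UMIs, 165 CPM (156 to 175), in the Cxcl12-cKO-labelled library, a log2 ratio of 0.03 (-0.11 to 0.16). The female mice had 162 and 180 CPM and the male mice 169 and 159. By subcluster, the Xcr1-led dendritic-like nuclei had 396 and 374 CPM, the microglia-like nuclei 258 and 262, and the F13a1-led and Mrc1-led nuclei 109 and 122. The order of these 3 was the same in both libraries. A UMI was found in 28.8% and 33.4% of myeloid-like nuclei, and in 15.1% and 15.2% after thinning, against 0.943% and 0.559% of astrocyte-like nuclei after thinning. T-cell-like nuclei had only 3 and 4 UMIs.

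Cd86 and Havcr2 were the members found in the most lesional myeloid-like nuclei, 1241 and 1278 of 4076. They were also the pair found together most often, in 451 nuclei. The rank of a pair follows how many nuclei hold each gene, and no expected number was computed. Both genes were also the members found in the few parenchymal myeloid-like nuclei. With 30 and 46 such nuclei, Cd86 had 18 and 22 UMIs (313 and 223 CPM) and Havcr2 18 and 25 UMIs (313 and 253 CPM). Cd80 had 0 and 5 UMIs there and Cd274 0 and 1; a count of 0 in the control-labelled library allows up to 52.1 CPM.

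Cd274 (ENSMUSG00000016496), the PD-L1 gene, was split between myeloid-like and fibroblast-like nuclei. Myeloid-like nuclei had 355 UMIs, 74.5 CPM (66.9 to 82.7), and 456 UMIs, 65.8 CPM (59.9 to 72.1), a log2 ratio of -0.18 (-0.38 to 0.03) with an interval that held 0. Subclusters went opposite ways. In microglia-like nuclei Cd274 was 89.1 and 62.9 CPM (-0.50, -0.83 to -0.17), and in the F13a1-led and Mrc1-led nuclei 63.9 and 85.8 CPM (0.42, 0.08 to 0.78). The highest levels were in dendritic-like nuclei, with 168 and 138 CPM in the Ccr7-led and 174 and 55.0 CPM in the Xcr1-led subcluster, the last from 11 and 5 UMIs.

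In fibroblast-like nuclei Cd274 was 13.2 CPM (189 UMIs) and 11.1 CPM (163 UMIs), a log2 ratio of -0.25 (-0.56 to 0.06). Unlike Cd80, it was even across the states, between 8.74 and 16.2 CPM in all 4 states of both libraries. Astrocyte-like nuclei had as much, 17.9 and 18.3 CPM, so the fibroblast level was not above that of another lesional class. Its female mice were above the male mice in fibroblast-like nuclei of both libraries, with 19.0 against 8.73 CPM and 16.8 against 7.42. Of 293 fibroblast-like nuclei with Cd274, 86 also had Cd80.

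Pdcd1lg2 (ENSMUSG00000016498), the PD-L2 gene, was the least counted ligand and had its highest level in the Ccr7-led dendritic-like subcluster, with 11 and 14 UMIs, 52.7 and 80.6 CPM. Those 113 nuclei held 25 of the 50 Pdcd1lg2 UMIs of lesional myeloid-like nuclei. The whole class had 20 and 30 UMIs, 4.20 and 4.33 CPM, a log2 ratio of 0.03 (-0.82 to 0.94). Fibroblast-like nuclei of the lesion had 3 and 5 UMIs.

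Cd40 (ENSMUSG00000017652), the receptor through which T cells license antigen-presenting cells, had 56 and 78 UMIs in myeloid-like nuclei, 11.8 and 11.3 CPM, a log2 ratio of -0.07 (-0.58 to 0.46). The female mice had 19.4 and 12.8 CPM and the male mice 5.25 and 11.6, opposite directions from 8 to 41 UMIs each. Microglia-like nuclei had little, 1.13 and 2.48 CPM, and the F13a1-led and Mrc1-led nuclei more, 17.4 and 14.7 CPM. Dendritic-like nuclei were highest, with 71.8 and 46.0 CPM in the Ccr7-led subcluster and 31.7 and 132 CPM in the Xcr1-led subcluster, from 15 and 8 and from 2 and 12 UMIs. Of the fibroblast states, the unnamed state had 7.98 and 3.31 CPM (9 and 5 UMIs), and fibroblast-like nuclei as a whole 1.18 and 1.09 CPM, near the 1.31 and 1.53 CPM of astrocyte-like nuclei. No Cd40 UMI was found in 213 lesional T-cell-like nuclei.

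**Figure D3:**
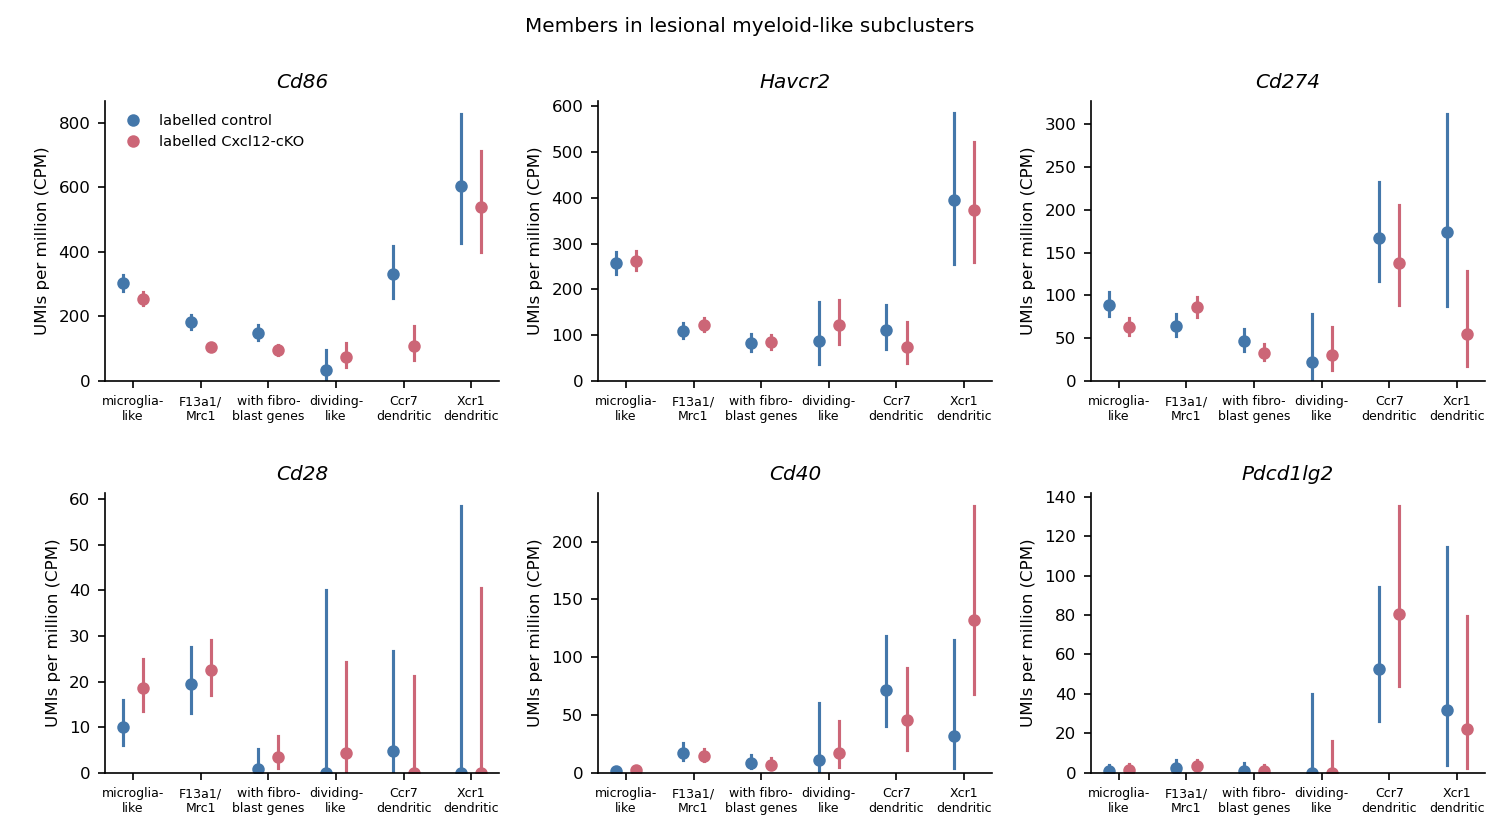
The 6 members in CPM (vertical axes, each with its own scale) in 6 lesional myeloid-like subclusters (horizontal axis); points are libraries and lines 95% counting intervals. Cd86 is lower in the Cxcl12-cKO-labelled library in all subclusters but the dividing-like one, Havcr2 overlaps in every subcluster, and Pdcd1lg2 is highest in the Ccr7-led dendritic-like nuclei.

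Cd28 (ENSMUSG00000026012), the main costimulatory receptor of T cells, had 75.0% of its UMIs in myeloid-like nuclei. Its level was higher in T-cell-like nuclei, at 87.8 CPM (18 UMIs) and 34.2 CPM (6 UMIs), than in myeloid-like nuclei, at 10.5 CPM (50 UMIs) and 15.7 CPM (109 UMIs), and in the Cxcl12-cKO-labelled library the intervals of the classes overlapped, at 12.5 to 74.4 and 12.9 to 19.0. Myeloid Cd28 was not evenly spread. The F13a1-led and Mrc1-led subcluster had 19.4 and 22.5 CPM and the microglia-like subcluster 10.2 and 18.6, whereas both dendritic-like subclusters together had 1 UMI.

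Cd28 in myeloid-like nuclei mostly came without T cell transcripts. Of 138 myeloid-like nuclei with Cd28, 9 (6.52%, 3.03 to 12) had a UMI of any of 9 T cell markers and 1 had UMIs of at least 2 of them. Among 3938 without Cd28, 2.77% had a T cell marker, at a lower median depth of 2268 against 3009.5 UMIs. All 22 T-cell-like nuclei with Cd28 had a T cell marker. For Icos the picture differed, since 7 of 17 myeloid-like nuclei with Icos had a T cell marker. A UMI of Cd28 was found in 2.46% and 4.10% of myeloid-like nuclei, 1.19% and 1.70% after thinning, against 0% and 0.186% of astrocyte-like nuclei after thinning.

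Between libraries, Cd28 in myeloid-like nuclei had a log2 ratio of 0.58 (0.09 to 1.10), while the T cell markers in the same nuclei went the other way, at 37.4 and 19.2 CPM. The mice did not share the direction: the female mice had 7.33 and 20.3 CPM and the male mice 15.8 and 11.0. The higher level of the Cxcl12-cKO-labelled library was that of its female mouse, with 65 of 109 UMIs. In T-cell-like nuclei the log2 ratio was -1.29 (-2.98 to 0.03) from 18 and 6 UMIs, an interval that held 0. It no longer did without the nuclei of highest Scrublet (doublet) score, at -1.46 (-3.37 to -0.02), or without the subcluster that carried fibroblast genes, at -1.46 (-3.17 to -0.10), the latter chosen after seeing the data. In every other alternative with an interval, the interval held 0. With no filter on barcodes the ratio was -0.66 (-1.95 to 0.47), and with own marker scores -0.79 (-2.24 to 0.44).

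Icos (ENSMUSG00000026009) had more UMIs in T-cell-like nuclei than any other member. All 9 T cell markers were detected in this class in each library, at a summed 4439 and 3451 CPM, and the class held 112 and 101 lesional nuclei at medians of 1305 and 1374 UMIs. The name of the class rests on 6 of the 9 markers, and a list of NK cell markers scored higher in the same cluster. Those NK cell markers summed to 176 and 199 CPM. Icos had 48 UMIs, 234 CPM (173 to 310), and 34 UMIs, 194 CPM (134 to 271), a log2 ratio of -0.27 (-0.95 to 0.39). A UMI was found in 24.1% and 19.8% of T-cell-like nuclei, or 17.4% and 11.9% after thinning, which left out 26 and 17 nuclei. In astrocyte-like nuclei the shares were 0.188% and 0.371% before and 0.189% and 0.186% after thinning. The female mice had 212 and 227 CPM, and the male mice 396 CPM from 19 UMIs and 57.5 CPM from 2 UMIs.

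Within the class, Icos was highest in a subcluster whose leading genes included Trgv6 and Trdv4, γδ T cell receptor genes. The subcluster was led by Ablim3 and Gm9961 and was given no name. Icos had 719 CPM (18 UMIs, 20 nuclei) and 278 CPM (19 UMIs, 46 nuclei) there, a log2 ratio of -1.37 (-2.38 to -0.36). In the larger subcluster led by Btla and Il12rb2 it was 234 and 214 CPM. The libraries thus differed beyond counting error in the first but not in the second. The subcluster with Trgv6 and Trdv4 held 20 of 112 and 46 of 101 nuclei. A last subcluster of 18 and 9 nuclei carried fibroblast genes, and 37.0% of its nuclei had UMIs of both sexes.

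Pdcd1 (ENSMUSG00000026285), the PD-1 gene, had 10 UMIs in T-cell-like nuclei of each library, 48.8 and 56.9 CPM, a log2 ratio of 0.22 (-1.20 to 1.64). In the subcluster with Trgv6 and Trdv4 it had 6 and 5 UMIs, 240 and 73.0 CPM. No Pdcd1 UMI was found in 1071 lesional astrocyte-like nuclei. A Pdcd1 UMI was found in 16 lesional T-cell-like and 15 lesional myeloid-like nuclei.

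Ctla4 (ENSMUSG00000026011), the inhibitory receptor of B7 ligands, had 9 and 7 UMIs in T-cell-like nuclei, 43.9 and 39.9 CPM, in 5 and 4 nuclei. The 9 UMIs of the control-labelled library all lay in the Btla-led and Il12rb2-led subcluster. The 7 of the other library were split 5 and 2 between this and the subcluster with Trgv6 and Trdv4. In parenchymal excitatory neurons Ctla4 had 39 and 22 UMIs, 1.20 and 0.686 CPM, in 1.96% and 1.14% of nuclei with medians of 17881 and 18993 UMIs. After thinning, 0.0577% and 0% of these neurons kept a Ctla4 UMI, against 2.33% and 1.19% of T-cell-like nuclei. Astrocyte-like nuclei of the lesion had none, which in the control-labelled library allows up to 1.31 CPM, no lower than the level in neurons.

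**Figure D4:**
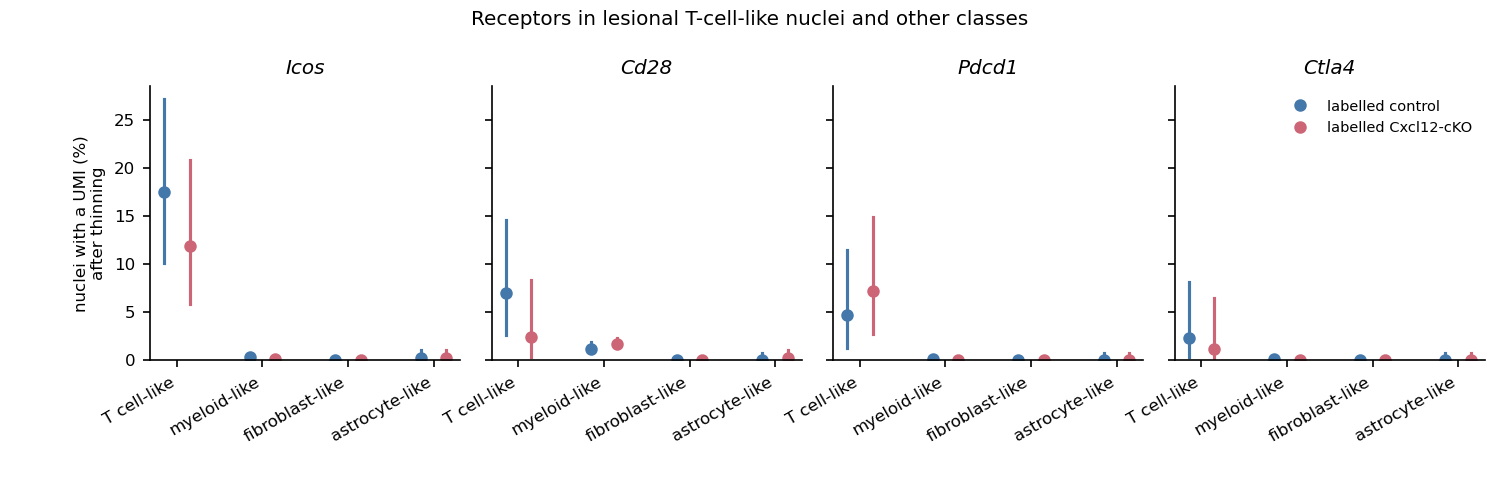
Share of lesional nuclei with a UMI of Icos, Cd28, Pdcd1 and Ctla4 after thinning to 1000 UMIs (vertical axis, percent) in 4 classes (horizontal axis), with points for libraries and lines for exact 95% binomial intervals. T-cell-like nuclei stand highest for Icos, 17.4% and 11.9%, and myeloid-like nuclei are above astrocyte-like nuclei for Cd28.

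The summed T cell receptors Cd28, Ctla4, Icos and Pdcd1 had 85 and 57 UMIs in T-cell-like nuclei, 415 and 325 CPM, a log2 ratio of -0.35 (-0.86 to 0.15). The interval held 0. With the subclusters given equal shares in both libraries, an alternative added after seeing the data, the ratio was -0.76. In the same nuclei the B cell markers had 10 and 1 UMIs and the fibroblast markers 1390 and 723 CPM; their part was not tested.

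Over all classes, 24 pairs of a member and a lesional class had at least 20 UMIs over both libraries, and 3 of them differed by 1.5-fold or more. In fibroblast-like nuclei 1 of 5 members did, where 9.49% of all 16604 genes with as many UMIs did. In T-cell-like nuclei it was 1 of 3, against 28.2% of 4304 genes, and in astrocyte-like nuclei 1 of 4, against 15% of 12762 genes. The 2 endothelial-like, 1 oligodendrocyte-like and 1 oligodendrocyte-precursor-like pairs, all of Cd80 or Cd86, gave 0, where 22.8%, 20.1% and 24.5% of all genes passed. In myeloid-like nuclei it was 0 of 8, against 11% of 14717 genes, with log2 ratios from -0.54 to 0.577 beside a limit of 0.585. The highest was Cd28, at 10.5 and 15.7 CPM, which only just stopped short of that fold. Cd86, at 229 and 160 CPM, also stopped short. The members were therefore not past the fold more often than genes in general in the myeloid-like class, and counts of 1 in the others are too few to read.

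The 3 pairs were Cd28 in T-cell-like nuclei, Cd80 in astrocyte-like nuclei (log2 ratio -1.09, -2.05 to -0.22) and Havcr2 in fibroblast-like nuclei. The last had 31 and 55 UMIs, 2.16 and 3.74 CPM, a log2 ratio of 0.78 (0.13 to 1.48), with 0.95 for the female and 0.77 for the male pair. All 8 myeloid markers were found in these fibroblast-like nuclei, at a summed 73.5 and 102 CPM, and Havcr2 stood at 2.94 and 3.67 UMIs per 100 myeloid-marker UMIs, below the 4.78 and 5.97 in myeloid-like nuclei. The part of myeloid RNA in this difference was not tested.

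**Figure D5:**
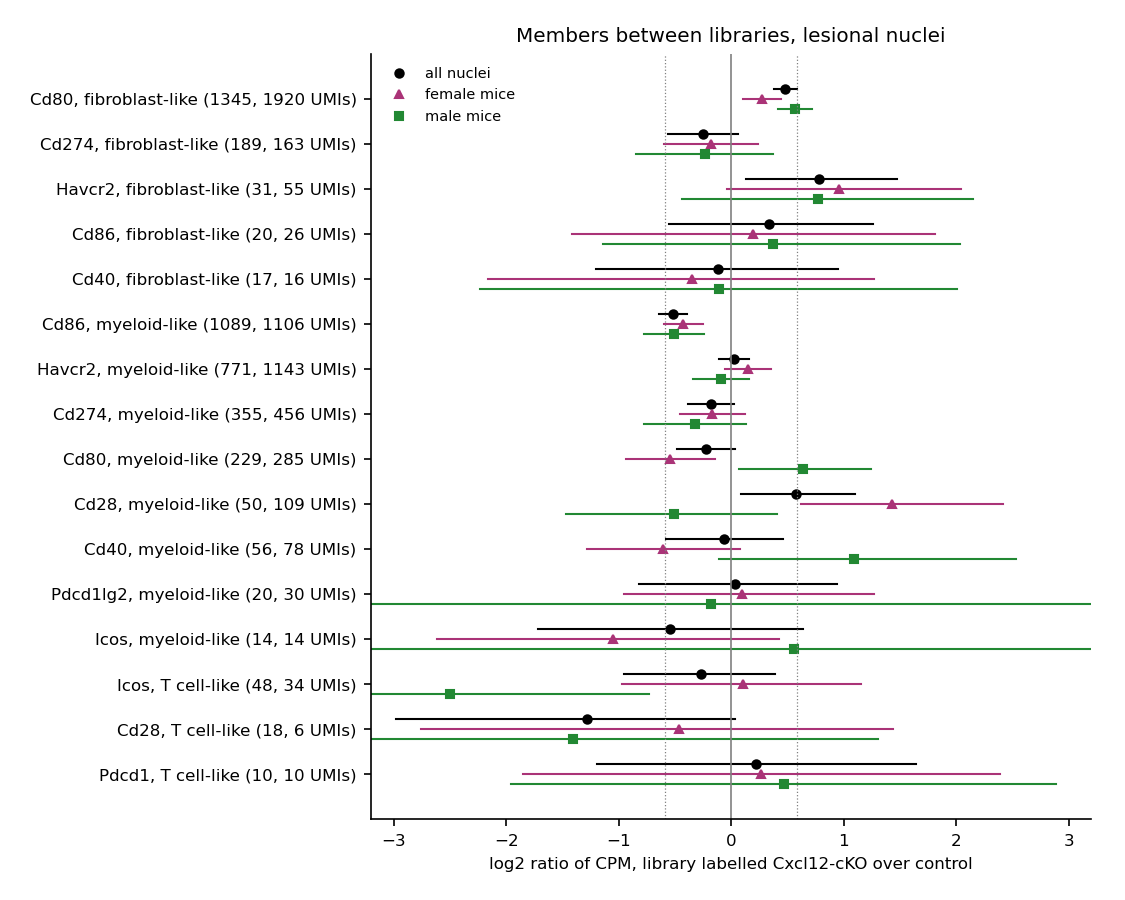
Log2 ratio of CPM, Cxcl12-cKO-labelled library over control (horizontal axis), for members with at least 20 UMIs in a class of fibroblast-like, myeloid-like or T-cell-like type (vertical axis, with UMIs of each library), for all nuclei and for each sex, with 95% counting intervals that are clipped at the edges; dotted lines mark 1.5-fold. Cd80 in fibroblast-like and Cd86 in myeloid-like nuclei have the narrowest intervals off 0, and Cd80, Cd28 and Cd40 in myeloid-like nuclei split by sex.

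The other genes of these pathways were described by lists, to be read beside the genes of each class that passed 1.5-fold in 1 direction: 4.85% higher and 6.16% lower in myeloid-like nuclei, 5.19% and 4.3% in fibroblast-like nuclei, and 14.1% and 14% in T-cell-like nuclei. Of 21 other costimulatory and checkpoint receptors, 13 had enough UMIs in myeloid-like nuclei, and 5 were lower and 0 higher by 1.5-fold, with a median log2 ratio of -0.45 beside -0.02 over all genes of the class. Among them was Slamf6, a receptor of lymphocytes, at 130 and 104 UMIs, 27.3 and 15.0 CPM (-0.86, -1.25 to -0.48). The same list in T-cell-like nuclei had 10 with enough UMIs, 4 lower and 0 higher, with a median of -0.43 beside -0.02. Slamf1 was the furthest, at 19 and 3 UMIs (-2.25, -4.84 to -0.68), of which the female mice had 12 and 1 and the male mice 2 and 1. In fibroblast-like nuclei it had 8 genes with enough UMIs, 1 lower and 0 higher, with a median of 0.03. Several of these receptors are T cell genes, and T cell markers were also lower in myeloid-like nuclei of the Cxcl12-cKO-labelled library, as given above; their part was not tested.

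Of 18 other ligands, 14 had enough UMIs in fibroblast-like nuclei, 12 in myeloid-like and 3 in T-cell-like nuclei, and 1 higher and 1 lower, 0 and 1, and 1 and 0 passed 1.5-fold. In fibroblast-like nuclei the lower ligand was Vtcn1 (B7-H4), at 28 and 12 UMIs (-1.22, -2.37 to -0.23), a difference of the female mice, with 16 and 4 UMIs, while the male mice had 8 and 8. In the same nuclei the higher ligand was Cd83, at 14 and 24 UMIs (0.72, -0.27 to 1.81).

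The signalling genes below these receptors were counted in the same way. Of the 9 CD40 signalling genes, all with enough UMIs in both classes, 0 passed 1.5-fold in either direction in myeloid-like or fibroblast-like nuclei. Of 19 genes of T cell receptor and costimulation signalling, 17 were measured in fibroblast-like nuclei and 4 were higher, among them Lcp2 (16 and 40 UMIs), Nfatc2 (20 and 40 UMIs) and Vav1 (22 and 35 UMIs), genes also used by leukocytes. Myeloid markers in these nuclei summed to 73.5 and 102 CPM, and their part was not tested. In T-cell-like nuclei 18 were measured, with 2 higher and 4 lower.

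Of the 7 genes from interferon-γ receptor to the transcription factors that drive Cd274, all were measured in myeloid-like nuclei and 1 was lower, Irf1, at 61.1 and 39.8 CPM (291 and 276 UMIs; -0.62, -0.86 to -0.37). The difference was that of the female mice, at 82.8 and 39.3 CPM (-1.08), while the male mice had 36.1 and 35.3 CPM. Cd274 itself was at -0.18 in the same nuclei. Of 21 T cell state genes, 10 were measured in T-cell-like nuclei, with 2 higher and 2 lower. Cxcr6, a receptor of tissue-resident T cells, had 45 and 68 UMIs, 220 and 387 CPM (0.81, 0.25 to 1.40), and Lef1, of naive and central memory cells, had 41 and 19 UMIs (-0.87, -1.75 to -0.07).

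Genes with the pattern most like each member were sought by Pearson correlation of log2(CPM + 1) over 40 points, the lesional classes and subclusters of both libraries, among 15656 genes. The points share libraries, depth and nuclei, so the values only describe. Cd86 was most like Il10ra, the interleukin-10 receptor (r = 0.93), Havcr2 most like Naip6 (0.95), Grb2 (0.95) and Nckap1l (0.92), and Icos most like Cxcr6 (0.94), Trbc1 (0.93) and Gimap3 (0.93). Cd40 was most like Emilin2 (0.87) and Pirb (0.86), and Cd274 most like Hps3 (0.86), Tasl (0.84) and the MHC class I gene H2-T24 (0.83). Lower values were found for Cd80, led by the pyroptosis effector Gsdmd (0.83) and the interferon-induced Ifi35 (0.81), for Cd28, led by Rasa1 (0.77), and for Ctla4, led by Timm8b (0.76). Pdcd1lg2 and Pdcd1 had fewer than 100 UMIs and were left out of this comparison.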

How the data were processed

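Single nuclei were sequenced with a 10x 3′ chemistry from lesion and parenchyma of 2 libraries, 1 per genotype, with 1 female and 1 male mouse each. The authors deposited 4 matrices of UMI counts per gene and barcode, one for each library and region, split by region tag, with no normalisation. Cell Ranger 9.0.0 and GRCm39 are named in the submitters' processing notes. For counting of intronic reads and for doublet removal, the setting is not given in the sources used.

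Barcodes outside the 2.5 to 97.5 percentiles of UMIs, genes or mitochondrial share were removed, which took 16.8% of all UMIs. Nuclei were clustered with scanpy 1.11.5 (3000 variable genes, 2000 within a class, 30 components, 20 neighbours, Leiden resolution 0.25), leaving out 127 genes (members, listed genes, Cxcl12 and its receptors, sex-linked and mitochondrial genes), and named from markers, of which at least 3 had to pass. "X-like" names rest on rebuilt clusters and may differ from the study's. Scrublet marked 45 barcodes and so had not worked. Removing the highest-scoring 10%, or nuclei with UMIs of both sexes, was an alternative.

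Counts were summed per class, region and library and scaled to CPM. Intervals are exact at 95% (Poisson, binomial, and conditional binomial for ratios, with 0.5 added to each sum), and a count of 0 was bounded by 3 counts. No test between genotypes was made. Members, gene lists and alternatives were chosen with earlier results of these data known. All members are named. From other lists, genes with at least 20 UMIs in a class are named, at most 6 per class. They differed by 1.5-fold or more over all nuclei of the class and had a ratio of the same sign in each sex. The 1.5-fold limit was not applied within a sex. The text gives those of the myeloid-like, fibroblast-like and T-cell-like classes that illustrate a count. For each member with at least 100 UMIs up to 3 most alike genes are named. The result of the T cell receptor signalling list in myeloid-like nuclei is not reported here. The scripts were tested on simulated data.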

Additional observations from a re-analysis of the deposited data

Results flagged for a closer look

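Among members with at least 20 UMIs in each sex in fibroblast-like, myeloid-like or T-cell-like nuclei, 5 pairs of a member and a class had log2 ratios of opposite sign in the females and the males, and none of these differences between sexes was tested, since each sex is 1 mouse per library. In T-cell-like nuclei the Icos log2 ratio was 0.10 for the female pair and -2.50 for the male pair, the latter from 19 and 2 UMIs. In myeloid-like nuclei Cd80 was at -0.54 and 0.64, Cd40 at -0.60 and 1.09, Cd28 at 1.43 and -0.51, and Havcr2 at 0.15 and -0.091, female and male in that order. For Havcr2 both intervals held 0.

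The fibroblast states also differed in direction for Cd80, with log2 ratios of 0.73 in the late inner-like, 0.81 in the leptomeningeal-like and 0.74 in the unnamed state and -0.39 in the altered dural-like state. This difference between states was not tested.

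Barcodes removed by the filter on depth, genes and mitochondrial share held 19.2% of all Ctla4 UMIs and 20.7% of all Pdcd1 UMIs, beside 16.8% of the UMIs of all genes. These barcodes enter no value of the report other than as the alternative without the filter.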

How the results depend on the processing

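Of 100 recomputed values, 88 moved by less than their counting interval, or by less than 1.5 times for counts. The class with most UMIs was unchanged for all 10 members under 5 alternatives. Cd86 in myeloid-like nuclei ranged from -0.53 to -0.40, Havcr2 from -0.09 to 0.15 and Cd274 from -0.32 to -0.09 over 12 alternatives. Cd80 in fibroblast-like nuclei moved to 0.71 when each nucleus took the class of its own marker scores and to 0.27 in the female mice. Cd40 moved to -0.60 for the females and 1.09 for the males, and the summed T cell receptors to -1.38 in the male mice, from 30 and 8 UMIs. Cd28 in T-cell-like nuclei ranged from -1.46 to -0.47. The count of 3 pairs of 24 past 1.5-fold became 6 of 27 with no filter on barcodes, 7 of 25 at Leiden resolution 0.5, 22 of 65 with own marker scores, 5 of 14 in the female mice, 1 of 13 with at least 50 UMIs, 24 of 62 with at least 1 UMI in each library, and 6 of 24 with the mean of single-nucleus CPM. Fewer or more pairs entered under most of these settings; the cause was otherwise not tested. Leaving out the subcluster with fibroblast genes and giving subclusters equal shares were added after seeing the data. With equal shares Cd80 was at 0.54 and the summed T cell receptors went from -0.35 to -0.76. Without the subcluster the interval of Cd28 in T-cell-like nuclei no longer held 0 (-1.46, -3.17 to -0.10), nor did it without the highest Scrublet scores (-1.46, -3.37 to -0.02). It held 0 in every other alternative with an interval, as with no filter on barcodes (-0.66, -1.95 to 0.47). No paired analysis was possible because each genotype is 1 library and no result comes from a test, and for the same reason no replicate could be left out. In T-cell-like nuclei the T cell receptors rest on 6 to 48 UMIs per gene and library.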

Other observations

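Listed genes were also named in classes that the members hardly use. Sharing a direction in both sexes was a condition of naming them and is not a result. In lesional oligodendrocyte precursors Cd200, a ligand that restrains myeloid cells, had 2 UMIs in the control-labelled library and 30 in the Cxcl12-cKO-labelled library (log2 ratio 3.01, 1.33 to 6.42), in a class where 24.5% of 7545 genes passed 1.5-fold. In lesional excitatory neurons the activity-regulated genes Nr4a3 and Nr4a2 had 374 and 55 UMIs (-1.37, -1.82 to -0.97) and 139 and 14 UMIs (-1.88, -2.84 to -1.13). The female control mouse held 299 of the 374 Nr4a3 UMIs, and the male mice had 14 and 2 (-0.24, -3.69 to 1.61). In that class 13.6% of 12197 genes passed 1.5-fold. In osteoblast-lineage nuclei Lgals9, a ligand of TIM-3, had 27 and 0 UMIs, in 343 and 82 nuclei. The log2 ratio was -3.66, with an interval that reached up to -0.65 and had no lower end. In that class 27.6% of 7495 genes passed 1.5-fold. These values come from 1 library per genotype and were not tested.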
